A study of Mus musculus with 12 samples.

Results

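To ask which transcripts separate exogenous S-adenosylmethionine (SAM) from adenine, one of its breakdown products, the 3 RNA sequencing libraries of cells given 1 mM SAM were set directly against the 3 of cells given 1 mM adenine, 6 of the 12 libraries in the series. The cells were immortalized mouse embryonic fibroblasts (MEFs) of the strain C57 PER2::LUC, prepared from heterozygous knock-in mice that express the clock protein PER2 fused to luciferase. Each library came from a separate dish grown to confluence and lysed 24 h after the medium was exchanged. Adenine had been dissolved in hydrochloric acid, and 3.3 mM HCl was therefore present in all 4 groups: SAM, adenine, 10 µM deazaneplanocin A (DZ, an inhibitor of adenosylhomocysteinase) and the control (CTL), which received HCl alone. The 3 dishes of a group are the replicates. Nothing in the labels says that they came from separate cultures or days, so p-values measure the spread between dishes, which may be technical.

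SAM is adenosine joined through a sulfonium to the carbon chain of methionine, and adenine is the purine base within it. Cells use SAM as the methyl donor for RNA, DNA, histones, other proteins and lipids, which leaves S-adenosylhomocysteine, cleaved by adenosylhomocysteinase (AHCY). A second route decarboxylates SAM with AMD1 and spends the aminopropyl group on polyamines. The methylthioadenosine left over is split by MTAP into adenine, taken up by APRT into AMP, and a sugar phosphate that the salvage pathway turns back into methionine. SAM can therefore give a cell methyl groups, sulfur, carbon and adenine, whereas adenine gives only the base. As both compounds were tested at the same dose and time, they form the single matched pair compared here.

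The table held 12591 genes as log2 CPM (read counts scaled to a common library total), and the reads on them ranged from 47504412 to 56789090 in the SAM libraries and from 49117495 to 55408822 in the adenine libraries. SAM and adenine libraries differed from each other by a standard deviation of 0.336 to 0.391 log2 across genes, against 0.139 to 0.182 between SAM dishes and 0.142 to 0.153 between adenine dishes. SAM replicate 3 stood apart from the other two SAM libraries, as the chi-square over its degrees of freedom was 15.7 and 19.1 against them and 4.76 between SAM replicates 1 and 2, and counts without it are given beside several of the gene lists. Of 13 fibroblast markers 10 were in the table, the matrix genes Fn1 and Col1a1 among them, whereas Dcn, Lum and Fap were not. The table is limited to genes of at least 1 CPM in every library. The summed level of these 10 was 19790 to 21140 CPM in SAM and 27730 to 30180 CPM in adenine, a sum to which the abundant Fn1 and collagens contribute most, whereas 5 of the 10 were called higher and 4 lower in SAM. No epithelial or endothelial marker was in the table, and of 11 leukocyte markers only Cd68 was, at 15.6 to 17.7 CPM in SAM and 10.8 to 12.4 CPM in adenine, with Cd68 also called higher (log2 fold change 0.55 ± 0.12, limma adjusted p = 0.00145). Of the muscle markers only Acta1 was listed, at 4.29 to 4.91 CPM in SAM and 1.53 to 3.44 CPM in adenine. Neural markers numbered 4 of 9, at 145 to 168 CPM in SAM and 169 to 177 CPM in adenine, Tubb3 being called lower in SAM at -1.47 log2. In bulk RNA, fewer cells of a type and less RNA per cell cannot be told apart, and the part of these markers in the results below was not tested.

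SAM and adenine differed at many genes, mostly by small amounts. In the limma fit at an adjusted p (false discovery rate, FDR) under 0.01, 5382 of 12591 genes (42.7%) differed, 2617 (20.8%) higher and 2765 (22.0%) lower in SAM. The median size among those called was 0.31 log2, and 77.4% of them differed by less than 0.5 log2. Large differences leaned to lower levels in SAM, as 144 genes (1.14%) were at least 2-fold lower and 58 (0.461%) at least 2-fold higher. The balance of directions depended on the scaling: dividing by plain read totals instead of the authors' normalized library sizes moved the median of all genes by 0.060 log2, and 63.2% of the calls were then higher in SAM, against 48.6% in the main fit. Every log2 fold change below is SAM minus adenine with its standard error from the fit (SE, 3 libraries per group), and a gene is called where it passed that FDR. Levels of a group given with ± are the mean and standard deviation (SD) of its 3 libraries. Counts of called members in every list below are to be read beside 20.8% of all genes higher and 22.0% lower.

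**Figure D1:**
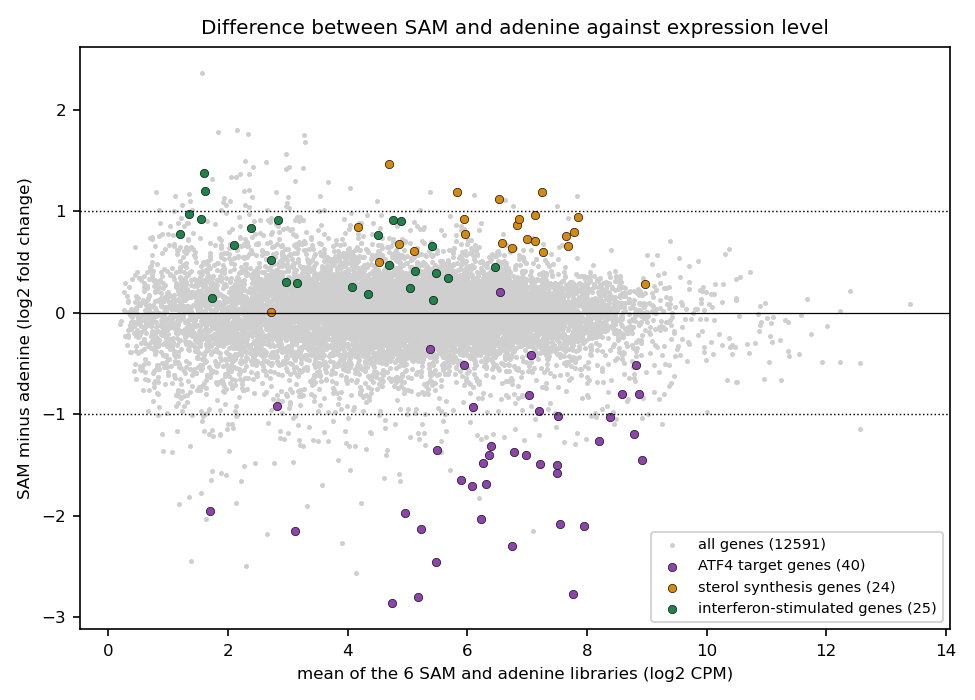
The log2 fold change of SAM minus adenine (vertical axis) is plotted against the mean of the 6 SAM and adenine libraries in log2 CPM (horizontal axis), 1 point per gene, with dotted lines at 1 log2 in each direction. The 40 genes of the ATF4 list lie below 0 except Cebpb, and sterol synthesis and interferon-stimulated genes lie at or above 0.

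Of 35 gene lists examined, the largest median difference was found in genes activated by ATF4, the transcription factor of the integrated stress response, which is translated when amino acids are short or when another stress phosphorylates eIF2alpha, and which switches on amino acid synthesis, amino acid import and tRNA charging. Of 40 such genes in the table, 39 were called lower in SAM and none higher, with a median of -1.43 log2 beside 1.16e-04 for all genes. They made up 29 of the 144 genes at least 2-fold lower in SAM (20.1%). The single member not called was Cebpb (log2 fold change 0.21, 95% confidence interval 0.04 to 0.38, limma adjusted p = 0.0394), named here, like other exceptions to a list below, after its values were seen. Leaving out SAM replicate 3 left 39 calls.

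At the top of the order stood the cystine importer Slc7a11 (chromosome 3, 49846975-50398070, minus strand), which brings in the cystine used for glutathione. Slc7a11 read 3.30, 3.38 and 3.25 log2 CPM in the SAM libraries and 6.06, 6.20 and 6.25 in the adenine libraries, so that every SAM library lay far below every adenine library. This was 7.25-fold lower in SAM (log2 fold change -2.86 ± 0.054, limma adjusted p = 3.37e-15). The CTL dishes, at 6.31, 6.40 and 6.27 log2 CPM, lay next to the adenine libraries. A similar step between SAM and adenine was seen for Trib3 (chromosome 2, 152179337-152191958, minus strand), a pseudokinase that dampens ATF4 itself, with 3.78, 3.84 and 3.70 log2 CPM in the SAM libraries and 6.55, 6.58 and 6.60 in the adenine libraries. Here adenine lay below the CTL dishes, which read 7.84, 7.81 and 7.84 log2 CPM. The SAM and adenine libraries of Trib3 did not overlap, and it was 6.99-fold lower in SAM than in adenine (log2 fold change -2.81 ± 0.037, limma adjusted p = 7.95e-17).

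Chac1 (chromosome 2, 119180757-119184866, plus strand), which breaks down glutathione, read 4.27, 4.31 and 4.18 log2 CPM in the SAM libraries and 6.71, 6.71 and 6.71 in the adenine libraries. Cth (chromosome 3, 157599868-157630739, minus strand), the last enzyme of transsulfuration, which makes cysteine from cystathionine, read 4.08, 4.08 and 4.31 log2 CPM in the SAM libraries and 6.27, 6.27 and 6.33 in the adenine libraries. For each of these genes the 3 SAM libraries clustered together, well under the adenine libraries. Chac1 was 5.49-fold lower (log2 fold change -2.46 ± 0.046, limma adjusted p = 3.37e-15) and Cth 4.39-fold lower (log2 fold change -2.14 ± 0.050, limma adjusted p = 4.97e-14). The CTL mean of Chac1, 6.79 ± 0.065 log2 CPM, lay next to adenine, whereas that of Cth, 7.31 ± 0.030, lay above it. Aldh1l2 (chromosome 10, 83323314-83370005, minus strand), a mitochondrial enzyme that oxidizes formyl-tetrahydrofolate, was among the most abundant members, with 6.37, 6.46 and 6.33 log2 CPM in the SAM libraries and 9.09, 9.14 and 9.24 in the adenine libraries. It was 6.83-fold lower in SAM (log2 fold change -2.77 ± 0.037, limma adjusted p = 8.99e-17), and it overlaps Nopchap1 on the opposite strand. The CTL mean of Aldh1l2 was 9.86 ± 0.023 log2 CPM, above adenine.

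The stress-induced transcription factors of the list moved with its enzymes. Atf3 (chromosome 1, 190902493-190950241, minus strand) read 2.05, 1.97 and 2.12 log2 CPM in the SAM libraries and 4.23, 4.23 and 4.15 in the adenine libraries, 4.45-fold lower (log2 fold change -2.15 ± 0.050, limma adjusted p = 3.78e-14). Its CTL mean was 5.83 ± 0.018 log2 CPM, above adenine. Atf5 (chromosome 7, 44461680-44466082, minus strand), which overlaps Nup62 on the opposite strand, read 6.52, 6.51 and 6.52 log2 CPM in the SAM libraries and 8.59, 8.55 and 8.65 in the adenine libraries, 4.23-fold lower (log2 fold change -2.08 ± 0.030, limma adjusted p = 1.13e-16). Ddit3, which encodes CHOP, was lower by a similar amount (log2 fold change -2.03 ± 0.036, limma adjusted p = 1.68e-15), and it overlaps Mars1 on the opposite strand. The transcript of Atf4 itself differed less (log2 fold change -0.80 ± 0.027, limma adjusted p = 3.44e-12), at 8.47 ± 0.043 log2 CPM in SAM and 9.27 ± 0.010 in adenine. The lipoprotein receptor Vldlr (chromosome 19, 27193862-27231631, plus strand) read 5.57, 5.63 and 5.60 log2 CPM in the SAM libraries and 7.87, 7.88 and 7.94 in the adenine libraries, and no member had a smaller adjusted p (log2 fold change -2.30 ± 0.030, limma adjusted p = 7.95e-17). In each of these 5 genes every SAM library was below every adenine library, a separation (in either direction) shared by 61.3% of all genes.

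The promoters of 4 of the most different members are shown because they hold the letters to which ATF4 with a C/EBP partner binds, the C/EBP-ATF response element (CARE). The 250 bases before the transcription start (GRCm39, canonical transcript of GENCODE) are printed 5′ to 3′ on the strand of the gene, with each match of TGATGNAAN on either strand in capitals. They were taken from chr3:50398064-50398313 (minus strand) for Slc7a11, chr2:119181439-119181688 (plus strand) for Chac1, chr1:190915538-190915787 (minus strand) for Atf3 and chr19:27194162-27194411 (plus strand) for Vldlr.
Slc7a11: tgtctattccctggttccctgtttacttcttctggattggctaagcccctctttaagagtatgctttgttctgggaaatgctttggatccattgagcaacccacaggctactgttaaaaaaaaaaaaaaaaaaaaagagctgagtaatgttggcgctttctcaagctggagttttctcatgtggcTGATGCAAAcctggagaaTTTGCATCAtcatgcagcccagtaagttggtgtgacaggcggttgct
Chac1: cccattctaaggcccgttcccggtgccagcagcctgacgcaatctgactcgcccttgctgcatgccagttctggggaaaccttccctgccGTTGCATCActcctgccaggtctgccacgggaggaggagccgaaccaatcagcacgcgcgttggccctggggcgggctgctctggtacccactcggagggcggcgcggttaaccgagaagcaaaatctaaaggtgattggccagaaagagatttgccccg
Atf3: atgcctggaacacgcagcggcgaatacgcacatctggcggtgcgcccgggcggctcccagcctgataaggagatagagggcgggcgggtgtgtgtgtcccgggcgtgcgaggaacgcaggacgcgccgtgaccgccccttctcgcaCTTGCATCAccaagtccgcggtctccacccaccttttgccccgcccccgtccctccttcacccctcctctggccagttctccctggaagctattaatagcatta
Vldlr: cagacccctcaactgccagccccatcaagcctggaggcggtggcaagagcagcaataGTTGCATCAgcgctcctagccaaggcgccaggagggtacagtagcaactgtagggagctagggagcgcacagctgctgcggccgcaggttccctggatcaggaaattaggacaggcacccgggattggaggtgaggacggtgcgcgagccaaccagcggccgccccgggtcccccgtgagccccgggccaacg
Slc7a11 held 2 matches, starting 65 and 47 bases before the start, and the others 1 each, 160 bases before it in Chac1, 104 in Atf3 and 193 in Vldlr. From 250 bases before to 50 after the start, 10 of 40 ATF4 list promoters (25%) held a match, against 250 of the 10948 promoters of protein-coding genes in the table (2.28%) and 834 of all 21770 (3.83%). The list was partly put together from genes known to carry this element, so the share is a description of the list.

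Serine and folate enzymes belong to this response in part. Of 18, 9 (50%) were called lower and 3 (16.7%) higher in SAM (median -0.17 log2), beside 22.0% and 20.8% of all genes. The lower group held the 3 enzymes from glycolysis to serine and 4 mitochondrial folate enzymes, all in the ATF4 list, together with Shmt1 and the folate carrier Slc19a1 (-0.21 log2). Psat1, the aminotransferase of serine synthesis, was at 8.20 ± 0.031 log2 CPM in SAM and 9.39 ± 0.028 in adenine (log2 fold change -1.19 ± 0.029, limma adjusted p = 7.62e-14). Shmt2, which passes the carbon of serine to mitochondrial folate, was at 8.19 ± 0.049 log2 CPM in SAM and 9.65 ± 0.058 in adenine (log2 fold change -1.46 ± 0.035, limma adjusted p = 5.89e-14). Mthfd2 and Mthfd1l, next in that pathway, differed by -1.37 and -1.48 log2. The cytosolic counterparts differed by -0.20 log2 for Shmt1, a call lost without SAM replicate 2 or adenine replicate 3 (limma adjusted p = 0.0108 and 0.0142), and by -0.03 log2 for Mthfd1, not called (95% confidence interval -0.12 to 0.06). Higher in SAM were, among others, Mtfmt and Fpgs, by 0.48 and 0.23 log2.

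Amino acid transporters were divided as well, 10 of 19 (52.6%) lower and 4 (21.1%) higher in SAM (median -0.52 log2), beside 22.0% and 20.8% of all genes. Slc7a5 (chromosome 8, 122607884-122634433, minus strand), the large neutral amino acid exchanger, read 6.89, 6.94 and 6.85 log2 CPM in the SAM libraries and 9.00, 8.97 and 9.02 in the adenine libraries, 4.31-fold lower and without overlap (log2 fold change -2.11 ± 0.030, limma adjusted p = 1.13e-16). Slc6a9, a glycine transporter, was lower as well (log2 fold change -1.68 ± 0.038, limma adjusted p = 3.42e-14), and it overlaps B4galt2 on the opposite strand. The 4 transporters higher in SAM carry glutamate (Slc1a3, 0.70 log2), taurine (Slc6a6, 0.37 log2), cationic and neutral amino acids (Slc7a6, 0.19 log2) and large neutral amino acids (Slc43a1, 0.67 log2). None of them is in the ATF4 list. That list holds Slc7a5, Slc6a9 and Slc7a11, and also the transporter genes Slc1a4, Slc1a5, Slc3a2, Slc38a2, Slc7a1 and Slc7a3. All of these were called lower and counted there, so the lower transporters are not a result separate from the ATF4 list.

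Cytosolic aminoacyl-tRNA synthetases, which charge tRNAs with their amino acids, were lower for 16 of 20 members and higher for none (median -0.79 log2). The smallest adjusted p belonged to Gars1 for glycine, at 7.63 ± 0.016 log2 CPM in SAM and 8.66 ± 0.029 in adenine (log2 fold change -1.03 ± 0.025, limma adjusted p = 7.28e-14). Nars1 for asparagine came next, at 7.91 ± 0.027 log2 CPM in SAM and 9.00 ± 0.033 in adenine (log2 fold change -1.09 ± 0.027, limma adjusted p = 7.85e-14). Aars1 for alanine was lower, at -1.10 log2, and overlaps Ddx19b on the opposite strand. Not called were Farsa (0.06 log2), Kars1 (-0.06 log2), Qars1 (-0.02 log2) and Vars1 (0.09 log2). Asparagine synthetase, Asns, was 3.00-fold lower (log2 fold change -1.58 ± 0.035, limma adjusted p = 2.15e-14).

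The comparisons of SAM and of adenine with CTL share the CTL libraries, so the values are only set side by side. The median of the ATF4 list was -1.77 log2 for SAM minus CTL and -0.34 for adenine minus CTL, and that of tRNA synthetases was -1.08 and -0.32. Over all genes these medians were -0.015 and -0.0030.

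**Figure D2:**
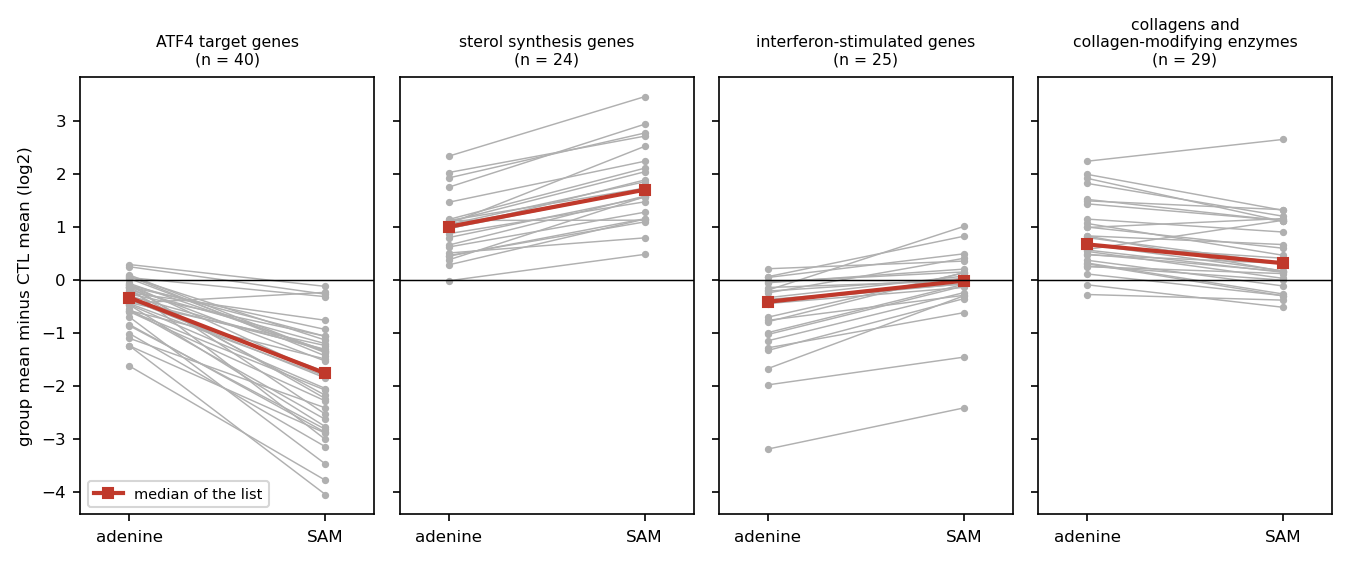
Group mean minus CTL mean (vertical axis, log2) is plotted for adenine and for SAM, 1 grey line per gene and a red line for the median of the list, in 4 gene lists. The median falls from -0.34 to -1.77 in the ATF4 list, rises from 1.00 to 1.70 in sterol synthesis and from -0.42 to -0.02 in interferon-stimulated genes, and falls from 0.67 to 0.31 in collagens, with the same CTL mean under both points of a line.

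Endoplasmic reticulum chaperones and XBP1 targets, which respond to unfolded proteins and share upstream stress kinases with ATF4, were mixed: 9 of 21 (42.9%) lower, 1 (4.76%) higher (Creld2, 0.31 log2), beside 22.0% and 20.8% of all genes. The median was -0.07 log2 and turned to 0.0040 under quantile normalization. The largest of the 3 members with the smallest adjusted p was Herpud1 (log2 fold change -0.74 ± 0.036, limma adjusted p = 2.36e-10). Hspa5, the chaperone BiP, was at 8.90 ± 0.032 log2 CPM in SAM and 9.49 ± 0.032 in adenine (log2 fold change -0.59 ± 0.029, limma adjusted p = 3.49e-10), and Sel1l, of the degradation complex, differed by -0.58 log2. Hspa5 overlaps Rabepk on the opposite strand.

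In contrast to the stress genes, cholesterol synthesis was higher in SAM. Sterol-sensing keeps the transcription factor SREBP2 in the endoplasmic reticulum, and when sterols fall it moves to the nucleus and activates the enzymes from acetyl-CoA to cholesterol. Of 24 members found, 23 were called higher and none lower, with a median of 0.77 log2. The exception was Tm7sf2 (log2 fold change 0.00, 95% confidence interval -0.27 to 0.27, limma adjusted p = 0.980), a sterol reductase. All 23 calls were also made without SAM replicate 3.

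Following the pathway, Acat2 (chromosome 17, 13161367-13179641, minus strand), which condenses acetyl-CoA, read 7.76, 7.88 and 7.89 log2 CPM in the SAM libraries and 6.71, 6.66 and 6.60 in the adenine libraries. It rose 2.28-fold (log2 fold change 1.19 ± 0.041, limma adjusted p = 4.12e-12), as did its near copy Acat3 (log2 fold change 1.19 ± 0.13, limma adjusted p = 1.63e-06), and both overlap Tcp1 on the opposite strand. Pmvk (chromosome 3, 89361758-89376323, plus strand), phosphomevalonate kinase, read 5.35, 5.47 and 5.45 log2 CPM in the SAM libraries and 4.03, 3.93 and 3.93 in the adenine libraries. Mvd (chromosome 8, 123160336-123170324, minus strand), the decarboxylase after it, read 6.36, 6.42 and 6.50 log2 CPM in the SAM libraries and 5.29, 5.21 and 5.21 in the adenine libraries. No SAM library of either gene came within the adenine range, and Pmvk was 2.75-fold higher (log2 fold change 1.46 ± 0.063, limma adjusted p = 6.36e-11) and Mvd 2.28-fold higher (log2 fold change 1.19 ± 0.058, limma adjusted p = 2.54e-10). Cyp51, the lanosterol demethylase, was at 8.32 ± 0.046 log2 CPM in SAM and 7.38 ± 0.063 in adenine (log2 fold change 0.94 ± 0.037, limma adjusted p = 2.32e-11) and overlaps Akap9 on the opposite strand. Insig1, which retains the SREBP complex when sterols are abundant, had the smallest adjusted p of the list (log2 fold change 0.92 ± 0.031, limma adjusted p = 3.44e-12), at 7.32 ± 0.010 log2 CPM in SAM and 6.40 ± 0.047 in adenine.

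Set against the shared CTL libraries, the list had a median of 1.00 log2 in adenine and 1.70 log2 in SAM. Pmvk, for instance, read 2.91, 3.00 and 2.83 log2 CPM in the CTL dishes, below adenine and further below SAM. The sterol response element in its spelling TCACNCCAC occurred in 1 of 24 list promoters (4.17%, that of Hmgcs1) against 1.20% of the promoters of genes in the table. The letters CCAAT, bound by NF-Y, occurred in 19 of 24 (79.2%) against 40.3%. One spelling of a variable element was searched, and its lack in a window says nothing of SREBP2.

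Fatty acid synthesis genes, the targets of SREBP1, were higher for 10 of 14 members and lower for 1 (median 0.34 log2). The desaturases had the smallest adjusted p, and Acss2, an acetyl-CoA synthetase of low level here, the largest difference (log2 fold change 1.06 ± 0.14, limma adjusted p = 2.08e-05). Scd1 was at 7.60 ± 0.065 log2 CPM in SAM and 6.92 ± 0.026 in adenine (log2 fold change 0.68 ± 0.038, limma adjusted p = 1.31e-09), and Scd2 at 10.69 ± 0.060 log2 CPM in SAM and 10.06 ± 0.045 in adenine (log2 fold change 0.63 ± 0.036, limma adjusted p = 1.83e-09). Fads1 was 0.32 log2 higher. The member that was lower was the acetyl-CoA carboxylase Acaca (-0.21 log2), a call lost without adenine replicate 2 or 3 (limma adjusted p = 0.0226 and 0.0114). Of 8 targets of the sterol receptor LXR, Lpcat3 (log2 fold change 0.39 ± 0.047, limma adjusted p = 6.64e-06) and Npc2 (log2 fold change 0.22 ± 0.033, limma adjusted p = 5.38e-05) were called, both higher (25%, beside 20.8% of all genes). The count was 3 without SAM replicate 3 and 4 under plain read totals. Lpcat3 overlaps Emg1 and Npc2 overlaps Isca2, each on the opposite strand.

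Interferon-stimulated genes, which are switched on in cells exposed to interferon and many of which restrict viruses, were higher in SAM for 22 of 25 members and lower for none (median 0.52 log2). Without SAM replicate 3 the count was 21. Bst2 (tetherin, chromosome 8, 71986895-71990114, minus strand), which holds budding viruses at the cell surface, read 5.32, 5.27 and 5.46 log2 CPM in the SAM libraries and 4.48, 4.42 and 4.42 in the adenine libraries, and the CTL dishes 5.57, 5.53 and 5.68. The SAM libraries lay above the adenine libraries and closer to CTL, with a 1.88-fold difference (log2 fold change 0.91 ± 0.053, limma adjusted p = 2.22e-09). Ifit3 (chromosome 19, 34560899-34566443, plus strand), an RNA-binding antiviral protein, read 5.23, 5.17 and 5.22 log2 CPM in the SAM libraries and 4.20, 4.22 and 4.46 in the adenine libraries, again without overlap (log2 fold change 0.91 ± 0.059, limma adjusted p = 7.16e-09). Its near copy Ifit3b differed by 0.91 log2, and reads can be split between the 2 copies. Stat2, one of the factors of the pathway, was at 5.74 ± 0.037 log2 CPM in SAM and 5.08 ± 0.083 in adenine (log2 fold change 0.65 ± 0.048, limma adjusted p = 3.14e-08). Not called were Eif2ak2 (0.13 log2, but called without SAM replicate 3 at a limma adjusted p of 0.00497), Gbp2 (0.14 log2) and Ifi35 (0.19 log2).

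A further 12 of the 37 names on this list, among them Mx1 and Irf7, are not in the table. Against CTL the median of the list was -0.42 log2 for adenine and -0.02 log2 for SAM. The interferon-stimulated response element (ISRE) was found in 15 of 25 list promoters (60%), against 3.33% of the promoters of genes in the table and 3.84% of all promoters. As with the ATF4 list, this share describes the list and was not tested. The promoters of Bst2 (chr8:71990115-71990364, minus strand) and Ifit3 (chr19:34560649-34560898, plus strand) are printed over 250 bases before the start, with the ISRE in capitals, because these genes had the smallest adjusted p of the list.
Bst2: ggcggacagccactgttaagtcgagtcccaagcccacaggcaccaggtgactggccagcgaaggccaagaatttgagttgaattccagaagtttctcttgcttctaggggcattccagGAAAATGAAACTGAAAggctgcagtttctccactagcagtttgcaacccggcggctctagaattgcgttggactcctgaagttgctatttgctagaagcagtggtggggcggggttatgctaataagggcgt
Ifit3: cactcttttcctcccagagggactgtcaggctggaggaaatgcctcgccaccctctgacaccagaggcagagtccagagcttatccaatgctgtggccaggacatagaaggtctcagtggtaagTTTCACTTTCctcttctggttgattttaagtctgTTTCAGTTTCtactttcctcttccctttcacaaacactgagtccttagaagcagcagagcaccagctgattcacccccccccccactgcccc
In Bst2 a pair of overlapping matches began 132 and 126 bases before the start on the opposite strand, and in Ifit3 matches began 126 and 92 bases before it.

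NF-kappaB and chemokine genes, a neighbouring inflammatory list, were higher for 9 of 21 members (42.9%) and lower for 1 (4.76%), Ptgs2 (-0.25 log2), beside 20.8% and 22.0% of all genes. Ccl2, which attracts monocytes, was at 6.68 ± 0.076 log2 CPM in SAM and 5.79 ± 0.041 in adenine (log2 fold change 0.89 ± 0.044, limma adjusted p = 3.35e-10), and Cxcl5 and Ccl5 were 0.73 and 1.01 log2 higher. The 4 genes Nfkb1, Rel, Rela and Relb, which encode the NF-kappaB subunits, were not called, at 0.11, 0.04, 0.07 and 0.10 log2. Nfkb1 was called without SAM replicate 3 (limma adjusted p = 0.00221), and Nfkb1, Rela and Relb were called under plain read totals, at 0.17, 0.13 and 0.16 log2.

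**Figure D3:**
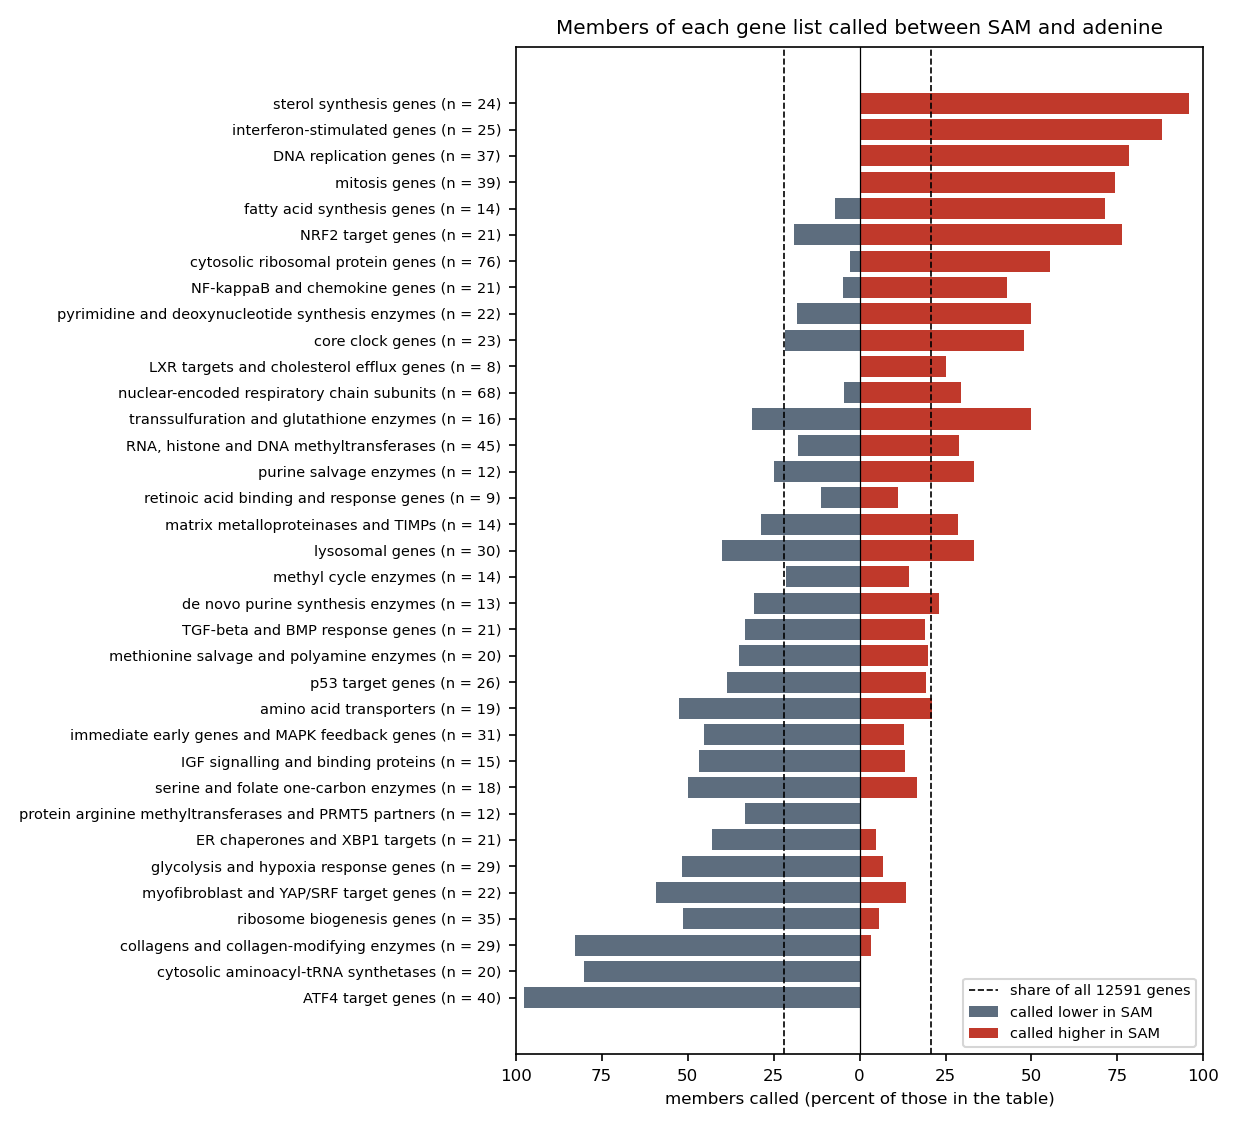
For each of the 35 gene lists, bars show the percent of the members in the table that were called lower in SAM (left, grey) and higher in SAM (right, red), and dashed lines show the share of all 12591 genes, 22.0% lower and 20.8% higher. The ATF4 list (97.5% lower) and sterol synthesis (95.8% higher) sit at the ends.

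Turning to the enzymes that handle SAM and adenine themselves, differences were small beside those of the stress genes. In the methyl cycle, 2 of 14 genes (14.3%) were called higher and 3 (21.4%) lower, shares not above those of all genes. Mat2a, which makes SAM from methionine and whose transcript is known to be controlled by the level of SAM, read 7.36, 7.38 and 7.45 log2 CPM in the SAM libraries and 7.89, 7.86 and 7.99 in the adenine libraries. The SAM libraries lay below the adenine libraries, 1.43-fold lower (log2 fold change -0.52 ± 0.033, limma adjusted p = 7.58e-09), and Mat2a overlaps Ggcx and Particl on the opposite strand. Its CTL mean, 8.51 ± 0.022 log2 CPM, lay above both treatments. Ahcy was at 7.16 ± 0.022 log2 CPM in SAM and 7.36 ± 0.027 in adenine (log2 fold change -0.19 ± 0.027, limma adjusted p = 2.92e-05), with a CTL level of 7.39 ± 0.014. Ahcyl1, a relative that does not hydrolyse S-adenosylhomocysteine, was higher (log2 fold change 0.14 ± 0.024, limma adjusted p = 2.29e-04). Gamt, of creatine synthesis, was too (log2 fold change 0.37 ± 0.10, limma adjusted p = 0.00698), a call lost on leaving out either of SAM replicates 2 and 3 or adenine replicates 2 and 3 (adjusted p from 0.0197 to 0.0383 in limma). Mtr, Mat2b and Mettl16 differed by -0.04, 0.00 and -0.01 log2 and were not called.

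On the route from SAM through polyamines to adenine, 4 of 20 genes (20.0%) were higher and 7 (35.0%) lower in SAM, beside 20.8% and 22.0% of all genes. The median of this list was -0.09 log2, and -0.03 under plain read totals. Amd1, which commits SAM to this route, read 6.89, 6.92 and 6.95 log2 CPM in the SAM libraries and 6.47, 6.57 and 6.51 in the adenine libraries, all 3 SAM libraries above adenine (log2 fold change 0.40 ± 0.032, limma adjusted p = 7.23e-08). Odc1, which makes the putrescine that receives the aminopropyl group, went the other way, with 6.83, 6.84 and 6.84 log2 CPM in the SAM libraries and 7.38, 7.45 and 7.33 in the adenine libraries. Its groups did not overlap, and it was 1.46-fold lower (log2 fold change -0.55 ± 0.043, limma adjusted p = 7.57e-08). CTL means were 6.70 ± 0.024 log2 CPM for Amd1, between adenine and SAM, and 6.96 ± 0.044 for Odc1, closer to SAM than to adenine. The ornithine decarboxylase antizyme Oaz1, which targets ODC1 for degradation, was 0.35 log2 higher, whereas the antizyme inhibitor Azin1 was lower, at -0.17 log2, and lost its call under plain read totals. Spermidine synthase Srm and spermine oxidase Smox were lower, at -0.32 and -0.48 log2. Sms and Sat1 were not called, with 95% confidence intervals of -0.02 to 0.15 and -0.10 to 0.04 log2.

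Mtap, which releases adenine, differed by 0.10 log2, close to the threshold (log2 fold change 0.10 ± 0.028, limma adjusted p = 0.00744). This call was lost without SAM replicate 1 or 3 and without any single adenine library (limma adjusted p from 0.0116 to 0.0346). Aprt, which turns adenine into AMP, was not called (log2 fold change 0.01, 95% confidence interval -0.09 to 0.11, limma adjusted p = 0.905). In the salvage of methionine, Enoph1 was 0.42 log2 higher, Apip -0.48 log2 and Kyat1, a transaminase of the last step, -0.76 log2, both lower. Mri1 and Adi1 differed by 0.00 and -0.08 log2 and were not called.

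Sulfur metabolism downstream of homocysteine was divided, with 8 of 16 genes (50%) higher and 5 (31.25%) lower in SAM, or 7 and 6 without SAM replicate 3. The shares of all genes were 20.8% and 22.0%. Apart from Cth, Slc7a11 and Chac1, which also belong to the ATF4 list, the lower genes were Csad, of taurine synthesis (log2 fold change -1.18 ± 0.062, limma adjusted p = 6.43e-10), and glutathione synthetase Gss (-0.36 log2). Both subunits of the enzyme that starts glutathione synthesis were higher in SAM, Gclc (log2 fold change 0.46 ± 0.039, limma adjusted p = 1.36e-07) and Gclm (log2 fold change 0.37 ± 0.039, limma adjusted p = 1.86e-06). Glutathione reductase Gsr, the transferase Gstm1 and the peroxidase Gpx4 were higher by 0.34, 0.96 and 0.16 log2. The sulfur enzymes Ethe1, Mpst and Sqor completed this group, by 0.69, 0.41 and 0.17 log2. The call of Sqor was lost without SAM replicate 3 or adenine replicate 1 or 2 (limma adjusted p from 0.0140 to 0.0160), and that of Gpx4 without adenine replicate 3 (limma adjusted p = 0.0160).

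Targets of NRF2, the factor of the antioxidant response, were higher for 16 of 21 members and lower for 4 (median 0.34 log2). The 4 lower members were Slc7a11, the exporter Abcc4 (-1.16 log2), G6pdx (-0.11 log2) and Nfe2l2, the gene of NRF2 itself (-0.55 log2). The call of G6pdx was lost on leaving out any library but SAM replicate 3 (limma adjusted p from 0.0101 to 0.0468). Of the members higher in SAM, the smallest adjusted p belonged to Tkt and Pgd, enzymes of the pentose phosphate pathway that supplies NADPH. Tkt was at 8.71 ± 0.023 log2 CPM in SAM and 8.09 ± 0.022 in adenine (log2 fold change 0.61 ± 0.025, limma adjusted p = 3.25e-11). Pgd was at 6.98 ± 0.046 log2 CPM in SAM and 6.20 ± 0.012 in adenine (log2 fold change 0.77 ± 0.032, limma adjusted p = 3.99e-11). The CTL mean of Tkt, 8.71 ± 0.0036 log2 CPM, lay next to SAM, whereas that of Pgd, 6.15 ± 0.038, lay next to adenine. Over the list, the median was 0.08 log2 for SAM minus CTL and -0.11 for adenine minus CTL. The antioxidant response element spelled TGACNNNGC was in 4 of 21 promoters of the list (19%) against 13.7% of those of genes in the table.

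Nucleotide enzymes showed no common direction. In de novo purine synthesis 3 of 13 members (23.1%) were higher and 4 (30.8%) lower, beside 20.8% and 22.0% of all genes. The higher members were Adss1, an adenylosuccinate synthase at a low level (log2 fold change 1.06 ± 0.21, limma adjusted p = 6.44e-04), Gmps (0.19 log2) and Prps1 (0.19 log2). The lower ones included Adsl (log2 fold change -0.25 ± 0.038, limma adjusted p = 5.01e-05) and Atic (log2 fold change -0.22 ± 0.034, limma adjusted p = 5.71e-05). In purine salvage 4 of 12 (33.3%) were higher and 3 (25%) lower. Both lists thus had shares near those of all genes. The smallest adjusted p in purine salvage belonged to Ampd3, which deaminates AMP, at 5.62 ± 0.035 log2 CPM in SAM and 4.93 ± 0.028 in adenine (log2 fold change 0.69 ± 0.046, limma adjusted p = 1.06e-08), and it overlaps Rnf141 on the opposite strand. Pnp, purine nucleoside phosphorylase, was at 6.82 ± 0.069 log2 CPM in SAM and 6.25 ± 0.051 in adenine (log2 fold change 0.58 ± 0.039, limma adjusted p = 1.23e-08), and the ectonucleotidase Nt5e was lower, at -0.33 log2. Of 22 pyrimidine and deoxynucleotide enzymes, 11 (50%) were higher and 4 (18.2%) lower. The higher ones included the ribonucleotide reductase subunit Rrm1 (log2 fold change 0.46 ± 0.039, limma adjusted p = 1.56e-07) and thymidine kinase Tk1 (log2 fold change 0.64 ± 0.060, limma adjusted p = 4.30e-07). Tk1 overlaps Afmid and Syngr2 on the opposite strand. The p53-induced subunit Rrm2b led the lower ones (log2 fold change -0.75 ± 0.059, limma adjusted p = 6.97e-08).

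Methyltransferases are the enzymes that use SAM. Of 45 such enzymes and partners acting on RNA, histones and DNA, 13 (28.9%) were higher and 8 (17.8%) lower, beside 20.8% and 22.0% of all genes, and the median changed from 0.03 to -0.0074 log2 without adenine replicate 1. Mettl3, which methylates adenosines of mRNA, was not called (log2 fold change -0.09, 95% confidence interval -0.19 to 0.01, limma adjusted p = 0.0993). Uhrf1, which guides maintenance DNA methylation, was at 7.38 ± 0.059 log2 CPM in SAM and 6.76 ± 0.025 in adenine (log2 fold change 0.62 ± 0.041, limma adjusted p = 1.01e-08). The histone H3 lysine 9 enzymes Suv39h1 (log2 fold change 0.49 ± 0.040, limma adjusted p = 1.07e-07) and Ehmt2 (log2 fold change 0.28 ± 0.025, limma adjusted p = 3.82e-07) were also higher. Among protein arginine methyltransferases and partners 4 of 12 (33.3%) were lower and none higher, beside 22.0% and 20.8% of all genes. Wdr77, the partner of PRMT5, was the most different (log2 fold change -0.42 ± 0.039, limma adjusted p = 4.26e-07), and it overlaps Atp5pb on the opposite strand. The other lower members were Prmt3 (-0.37 log2), Riok1 (-0.25 log2) and Carm1 (-0.13 log2). Prmt5 itself was not called (log2 fold change 0.04, 95% confidence interval -0.04 to 0.12, limma adjusted p = 0.399).

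Genes of the clock, in which BMAL1 and CLOCK drive the PER and CRY genes that repress them, were higher in SAM for 11 of 23 members (47.8%) and lower for 5 (21.7%), beside 20.8% and 22.0% of all genes. Per2, the gene that carries the luciferase, read 2.65, 2.39 and 2.12 log2 CPM in the SAM libraries and 1.39, 1.76 and 0.98 in the adenine libraries, with 2.27, 2.13 and 2.01 in CTL. The spread between dishes was wide, yet all SAM libraries were above all adenine libraries (log2 fold change 1.01 ± 0.17, limma adjusted p = 1.35e-04). Dbp, an output gene bound by BMAL1, read 3.54, 3.44 and 3.40 log2 CPM in the SAM libraries and 2.87, 2.77 and 2.82 in the adenine libraries, against 4.26, 4.10 and 4.16 in CTL, so that SAM lay between adenine and CTL (log2 fold change 0.64 ± 0.069, limma adjusted p = 1.73e-06). Dbp overlaps Sphk2 on the opposite strand.

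Ciart, a repressor of CLOCK and BMAL1, showed the largest difference of the list, with 1.08, 1.42 and 1.11 log2 CPM in the SAM libraries and 2.83, 3.21 and 3.18 in the adenine libraries and no overlap (log2 fold change -1.87 ± 0.11, limma adjusted p = 3.55e-09). Nfil3, which represses the DBP sites, read 3.87, 3.93 and 3.97 log2 CPM in the SAM libraries and 4.81, 4.87 and 4.68 in the adenine libraries, and was lower in all 3 SAM libraries (log2 fold change -0.86 ± 0.056, limma adjusted p = 7.06e-09). Bmal1 was lower too, at 4.04 ± 0.061 log2 CPM in SAM and 4.52 ± 0.032 in adenine (log2 fold change -0.48 ± 0.065, limma adjusted p = 1.91e-05), with 3.85 ± 0.10 in CTL. The other 2 lower members were Cry2 (-0.49 log2) and Rora (-0.58 log2), while Per3 and Cry1 were 0.62 and 0.45 log2 higher. Clock was not called (log2 fold change -0.10, 95% confidence interval -0.20 to -0.01, limma adjusted p = 0.0616). The kinase gene Csnk1d was not called either (log2 fold change 0.07, 95% confidence interval 0.01 to 0.14, limma adjusted p = 0.0542), but was under plain read totals (0.14 log2, limma adjusted p = 0.00146) and quantile normalization (0.12 log2, limma adjusted p = 0.00310). These are levels at a single time, and a shift in phase and a change in mean level cannot be told apart. The E-box CACGTG occurred in 6 of 23 list promoters (26.1%) against 10.5% of those of genes in the table.

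**Figure D4:**
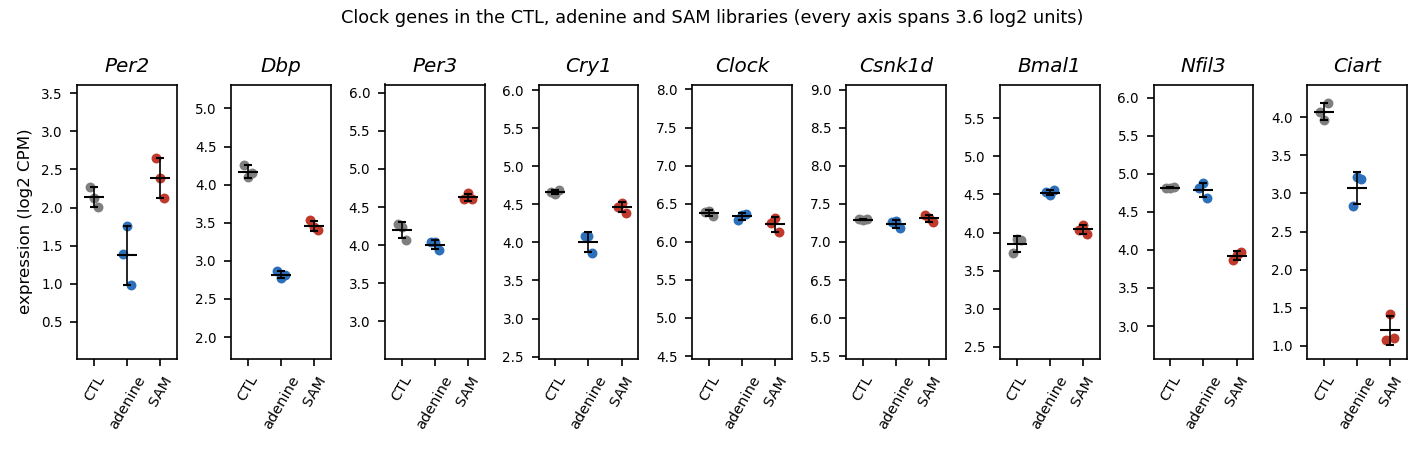
Expression (log2 CPM, vertical axes, each spanning 3.6 log2 units) of 9 clock genes is shown in the CTL, adenine and SAM groups, 1 point per library, with bars for the mean ± SD. SAM is above adenine for Per2, Dbp, Per3 and Cry1, below it for Bmal1, Nfil3 and Ciart, and not called for Clock and Csnk1d.

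Genes of cell division were higher in SAM. Of 37 DNA replication genes 29 were higher and none lower (median 0.31 log2), and of 39 mitosis genes 29 were higher and none lower (median 0.37 log2). Without SAM replicate 3 these counts were 25 and 31. Pold1, the catalytic subunit of DNA polymerase delta, was at 6.65 ± 0.046 log2 CPM in SAM and 6.13 ± 0.018 in adenine (log2 fold change 0.53 ± 0.036, limma adjusted p = 1.62e-08). Chaf1b, a histone chaperone of replication, and Mcm4, of the replicative helicase, were 0.57 and 0.40 log2 higher. Aurkb, the kinase of the chromosomal passenger complex, was at 6.36 ± 0.065 log2 CPM in SAM and 5.53 ± 0.065 in adenine (log2 fold change 0.83 ± 0.061, limma adjusted p = 3.19e-08). The checkpoint kinase Bub1 was at 6.79 ± 0.014 log2 CPM in SAM and 6.20 ± 0.042 in adenine (log2 fold change 0.60 ± 0.051, limma adjusted p = 1.85e-07). Nusap1 was 0.62 log2 higher and overlaps Oip5 on the opposite strand.

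These steps were small beside the distance of both treatments from CTL. The median of the replication list was 1.57 log2 for SAM minus CTL and 1.27 for adenine minus CTL, and that of the mitosis list was 2.06 and 1.61. The cell cycle homology region spelled TTTGAA was found in 18 of 39 mitosis promoters (46.2%) against 13.5% of those of genes in the table, and CCAAT in 25 of 39 (64.1%) against 40.3%. These shares describe the list and were not tested. The fraction of cycling cells was not measured, and more cycling cells and more RNA per cycling cell cannot be told apart.

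Of 26 targets of p53, 5 (19.2%) were higher and 10 (38.5%) lower, beside 20.8% and 22.0% of all genes. Cdkn1a, the cyclin-dependent kinase inhibitor p21, was the most different, with 2.70, 2.61 and 2.88 log2 CPM in the SAM libraries and 4.39, 4.45 and 4.45 in the adenine libraries. The groups were well separated, 3.25-fold lower in SAM (log2 fold change -1.70 ± 0.090, limma adjusted p = 7.04e-10). Gadd45a was 2.21-fold lower (log2 fold change -1.14 ± 0.042, limma adjusted p = 8.74e-12) and overlaps a noncoding gene of the table on the opposite strand, and Sesn2, which also stands in the ATF4 list, was lower, at -1.36 log2. Mdm2, a classic p53 target, was not called (log2 fold change -0.03, 95% confidence interval -0.11 to 0.05, limma adjusted p = 0.563), and neither was Trp53 (-0.08 log2). The 5 members higher in SAM were Bax, Perp, Plk2, Tnfrsf10b and Ckap2, by 0.18 to 0.44 log2, and the call of Bax was lost without SAM replicate 1 or 3 or adenine replicate 1 or 3 (limma adjusted p from 0.0115 to 0.0185).

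Collagen genes were lower in SAM. Of 29 collagens and collagen-modifying enzymes, 24 were lower and 1, Loxl3 (0.55 log2), was higher (median -0.40 log2). Without SAM replicate 3 the counts were 25 and 2. Col4a2, a basement membrane collagen that overlaps Col4a1 on the opposite strand, was at 8.70 ± 0.062 log2 CPM in SAM and 9.28 ± 0.032 in adenine (log2 fold change -0.58 ± 0.037, limma adjusted p = 5.07e-09). Serpinh1, the collagen chaperone HSP47, was at 10.22 ± 0.021 log2 CPM in SAM and 10.63 ± 0.026 in adenine (log2 fold change -0.41 ± 0.027, limma adjusted p = 9.63e-09). Col3a1 was lower, at -0.68 log2, and fibronectin, Fn1, read 12.07, 12.03 and 11.85 log2 CPM in the SAM libraries and 13.12, 13.16 and 13.11 in the adenine libraries, 2.21-fold lower (log2 fold change -1.15 ± 0.051, limma adjusted p = 8.86e-11). Markers of the fibroblast went both ways, 5 of 10 called higher and 4, Fn1 and 3 collagens, lower (median 0.10 log2), and Vim was 0.40 log2 and Pdgfra 0.65 log2 higher.

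Against CTL the collagen list had a median of 0.67 log2 in adenine and 0.31 log2 in SAM. Myofibroblast and YAP/SRF target genes followed, 13 of 22 (59.1%) lower and 3 (13.6%) higher, or 11 and 3 without SAM replicate 3. Tagln (log2 fold change -0.85 ± 0.030, limma adjusted p = 5.85e-12), which overlaps Pcsk7 on the opposite strand, and the actin crosslinker Flna (log2 fold change -0.65 ± 0.048, limma adjusted p = 3.36e-08) led them. Among proteases that cut the matrix and their inhibitors, 4 of 14 were higher and 4 lower (28.6% each, beside 20.8% and 22.0% of all genes). The collagenase Mmp13 (chromosome 9, 7272514-7283331, plus strand) read 3.75, 3.64 and 3.80 log2 CPM in the SAM libraries and 2.00, 2.34 and 2.55 in the adenine libraries. It was 2.70-fold higher without overlap (log2 fold change 1.43 ± 0.12, limma adjusted p = 1.98e-07), and the CTL level was 0.26 ± 0.064. The inhibitor Timp3 was at 8.52 ± 0.050 log2 CPM in SAM and 9.52 ± 0.033 in adenine, 2.00-fold lower, and Timp2 was lower, at -0.34 log2.

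Early response genes, induced by growth factors and serum through MAPK signalling, were lower for 14 of 31 members (45.2%) and higher for 4 (12.9%), with a median of -0.22 log2. The shares of all genes were 22.0% and 20.8%. Egr2 differed most (log2 fold change -2.18 ± 0.15, limma adjusted p = 2.20e-08), at 1.57 ± 0.087 log2 CPM in SAM and 3.74 ± 0.040 in adenine. Klf4 had the smallest adjusted p, 2.34-fold lower (log2 fold change -1.22 ± 0.055, limma adjusted p = 1.03e-10), and Egr3 and Ier2 were lower too, at -1.41 and -0.81 log2. The list median was 0.46 log2 for SAM minus CTL and 0.69 for adenine minus CTL. CTL means were 2.11 ± 0.072 log2 CPM for Egr3, below both treatments, and 5.97 ± 0.041 for Klf4, above both. That of Ier2, 6.41 ± 0.051 log2 CPM, lay between SAM and adenine. Glycolysis and hypoxia response genes were lower for 15 of 29 members (51.7%) and higher for 2 (6.90%), Pfkm (0.25 log2) and Pfkfb4 (0.67 log2). Ndrg1, induced by hypoxia and other stresses, was at 6.59 ± 0.013 log2 CPM in SAM and 7.80 ± 0.031 in adenine (log2 fold change -1.21 ± 0.026, limma adjusted p = 1.83e-14). Vegfa, which directs vessel growth and is also an ATF4 target in other settings, was at 6.97 ± 0.034 log2 CPM in SAM and 7.96 ± 0.030 in adenine (log2 fold change -0.98 ± 0.029, limma adjusted p = 5.93e-13). Pfkl, the liver-type phosphofructokinase, was lower, at -0.84 log2, and overlaps Cfap410 on the opposite strand. No oxygen measurement belongs to these data.

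Genes for the ribosome and for its assembly took opposite directions between SAM and adenine, though the medians of both lists were below CTL in both treatments. Against CTL these medians were -0.93 log2 in SAM and -1.12 in adenine for ribosomal proteins. For ribosome biogenesis they were -0.44 and -0.25 log2. Of 76 cytosolic ribosomal protein genes 42 were higher in SAM and 2, Rpl3 and Rps9, lower (-0.19 and -0.17 log2), with a median of 0.17 log2 that was 0.23 under plain read totals and 0.11 without SAM replicate 3, when 36 were higher and 3 lower. Rps4x was at 9.73 ± 0.068 log2 CPM in SAM and 9.38 ± 0.022 in adenine (log2 fold change 0.35 ± 0.035, limma adjusted p = 8.57e-07). These genes have many pseudogene copies that can share their reads, and reads on annotated pseudogenes were 3.75% to 4.19% of the total in SAM and 3.64% to 3.68% in adenine. Of 35 ribosome biogenesis genes 18 were lower and 2, Rrp1 and Nop10, higher (median -0.13 log2). Nop14 (log2 fold change -0.50 ± 0.033, limma adjusted p = 8.69e-09), Rrp12 (log2 fold change -0.63 ± 0.045, limma adjusted p = 2.06e-08) and Nop58 (-0.33 log2) had the smallest adjusted p.

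Among the 12 most different genes of each direction, several stood in none of the lists. Lower in SAM were Acot2 (chromosome 12, 84034428-84040647, plus strand), a mitochondrial acyl-CoA thioesterase, Dhrs9 (chromosome 2, 69210776-69234877, plus strand), a retinol dehydrogenase, and Cdsn (chromosome 17, 35863025-35868077, plus strand), corneodesmosin, an adhesion protein of the skin. Acot2 read 2.83, 2.73 and 3.03 log2 CPM in the SAM libraries and 5.37, 5.46 and 5.46 in the adenine libraries (log2 fold change -2.57 ± 0.061, limma adjusted p = 5.66e-14). Dhrs9 was at 2.77 ± 0.10 log2 CPM in SAM and 5.04 ± 0.094 in adenine (log2 fold change -2.27 ± 0.062, limma adjusted p = 2.03e-13). Cdsn, abundant in these cells, was at 6.03 ± 0.037 log2 CPM in SAM and 8.18 ± 0.081 in adenine (log2 fold change -2.16 ± 0.037, limma adjusted p = 1.43e-15). In each, adenine lay between CTL and SAM, with CTL at 6.56 ± 0.039, 5.36 ± 0.037 and 9.90 ± 0.028 log2 CPM.

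Higher in SAM was Ctsw (chromosome 19, 5515071-5518535, minus strand), a cathepsin gene that overlaps Fibp on the opposite strand. It read 4.03, 4.11 and 4.30 log2 CPM in the SAM libraries and 2.65, 2.38 and 2.15 in the adenine libraries (log2 fold change 1.75 ± 0.12, limma adjusted p = 2.17e-08). The water channel Aqp5 (chromosome 15, 99488532-99492710, plus strand) read 3.93, 3.91 and 4.08 log2 CPM in the SAM libraries and 2.50, 2.64 and 2.49 in the adenine libraries (log2 fold change 1.43 ± 0.12, limma adjusted p = 1.28e-07). Both were separated from adenine in every library, and the CTL means were 2.67 ± 0.17 and 2.20 ± 0.24 log2 CPM. The protease inhibitor Serpinb1a, which overlaps Wrnip1 on the opposite strand, was higher as well (log2 fold change 1.29 ± 0.088, limma adjusted p = 1.41e-08). So were the insulin receptor adaptor Grb14 (log2 fold change 1.23 ± 0.10, limma adjusted p = 1.20e-07) and Fam169b (log2 fold change 1.30 ± 0.083, limma adjusted p = 6.25e-09). The surface protein Ly6a, which has near copies in the genome, read 8.36, 8.40 and 8.48 log2 CPM in the SAM libraries and 7.30, 7.28 and 7.20 in the adenine libraries (log2 fold change 1.15 ± 0.038, limma adjusted p = 2.79e-12). For the potassium channel Kcnj15, adenine lay below the CTL mean of 6.35 ± 0.031, at 6.69 ± 0.029 log2 CPM in SAM and 5.53 ± 0.10 in adenine (log2 fold change 1.16 ± 0.049, limma adjusted p = 4.41e-11). All 24 genes were called on leaving out any 1 of the 6 libraries.

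**Figure D5:**
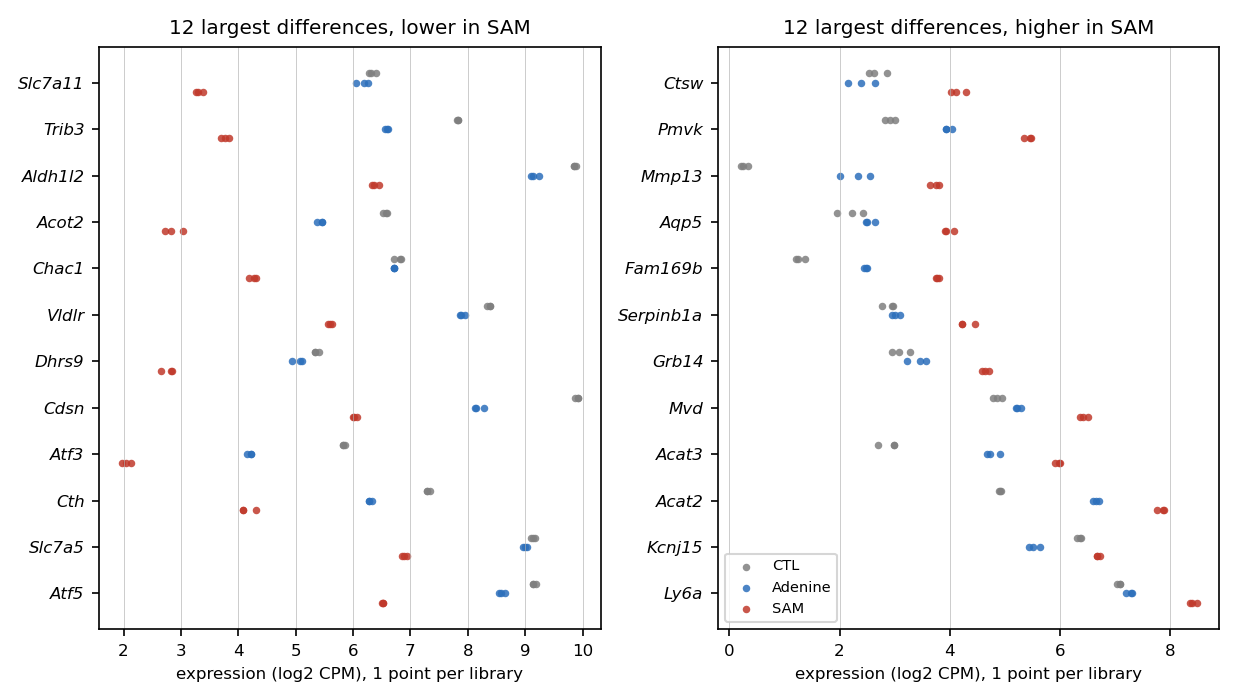
Expression (log2 CPM, horizontal axes) of the 12 genes with the largest difference in each direction is shown as 1 point per library, CTL in grey, adenine in blue and SAM in red. SAM and adenine points do not overlap for any of the 24 genes, whereas adenine lies next to CTL for Slc7a11, Chac1, Slc7a5 and Serpinb1a, among others.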

How the data were processed

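The authors sequenced 76 + 76 bases from stranded poly(A) libraries of 12 dishes and deposited a table of log2 CPM after dropping every gene that fell under 1 CPM in any sample. Per the labels, Trimmomatic, HISAT2, StringTie and edgeR were used on GRCm39, without versions. The values are those of a prior count of 2 and normalized library sizes, and whole reads could be recovered from all of them (100% within 0.01 of a whole number). Whether counting used the strand is not given in the sources used here, so genes that overlap on opposite strands cannot be told apart (59 of the genes named). The overlap is marked above for only part of these genes. Recovered reads per library ranged from 45649534 to 56789090.

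The deposited log2 values of all 12 libraries were fitted with limma 3.58.1 (R 4.3.3), 4 group means, a variance trend and the contrast SAM minus adenine, and p-values were adjusted by Benjamini-Hochberg over 12591 genes. An exact permutation test of 3 against 3 libraries could not go below p = 0.1 and was not used. Symbols and positions came from GENCODE vM39 (12575 genes matched). Lists were described by counts and medians, without a test of their own, and the members, lists and tests were chosen with earlier results of these data known. Shares of list promoters that hold a motif are likewise descriptions of the lists, without a test. Named by rule were the 12 most different protein-coding genes of each direction whose libraries did not overlap and averaged 3 log2 CPM or more, up to 3 members of each of 35 lists and 6 marker lists by adjusted p, the enzymes of the SAM route and 11 genes the study turns on, and others named were chosen after their values were seen. Some genes under these rules are not reported here. The fit was tested on simulated data, and 21 alternative settings were run.

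Same-numbered SAM and adenine libraries did not deviate together (correlations of deviations from the group means -0.0836, 0.054 and -0.0108), so the numbers were not taken as pairs.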

Additional observations from a re-analysis of the deposited data

How the results depend on the processing

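The count of 5382 genes called stayed between 4828 and 5654 under other variance settings, filters, scalings and voom on recovered reads, was 6991 at an FDR of 0.05, and ranged from 4490 to 4955 on leaving out 1 library (2114 to 2374 higher, 2369 to 2590 lower). With a minimum size of 0.5 log2, 1215 genes remained past the threshold (509 higher, 706 lower), and with 1 log2, 202 (58 higher, 144 lower). Those 202 became 128 when genes averaging under 3 log2 CPM were dropped, a filter that tests fewer genes, and 197 to 219 without 1 library. Plain read totals gave 3573 higher and 2081 lower against 2617 and 2765, and Shmt1, Slc19a1, Azin1, Carm1, Acaca, G6pdx, Ndufa6 and Ndufs5 lost their calls. The replicate number as a block gave 5337 calls (2563 higher, 2774 lower), and the numbers did not pair the samples. Of 191 named genes called, 16 lost the call in at least 1 setting other than a size minimum, and 0 of 232 reversed. The limits are 1 time, 1 dose, 3 dishes per group and differences that were mostly under 0.5 log2.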

Other observations

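IGF signalling and binding proteins, which tune growth signals outside the cell, included some of the larger differences that the groups above do not hold. Of 15 members 7 (46.7%) were lower and 2 (13.3%), Igfbp6 and Pappa2, higher in SAM (0.55 and 0.63 log2), beside 22.0% and 20.8% of all genes. Igfbp5 read 4.04, 4.12 and 4.04 log2 CPM in the SAM libraries and 5.70, 5.73 and 5.53 in the adenine libraries, 3.01-fold lower and without overlap (log2 fold change -1.59 ± 0.072, limma adjusted p = 1.22e-10). Igfbp4 was at 6.03 ± 0.049 log2 CPM in SAM and 6.99 ± 0.057 in adenine (log2 fold change -0.97 ± 0.035, limma adjusted p = 8.44e-12), and the adaptor Grb10 was lower, at -0.52 log2. CTL means were 3.19 ± 0.15 log2 CPM for Igfbp5, below both treatments, and 7.73 ± 0.035 for Igfbp4, above both. In the TGF-beta and BMP list 4 of 21 members (19.05%) were higher and 7 (33.3%) lower, beside 20.8% and 22.0% of all genes, with Bmp4 (log2 fold change 0.48 ± 0.046, limma adjusted p = 5.53e-07) and its antagonist Grem1 (log2 fold change 0.36 ± 0.043, limma adjusted p = 6.58e-06) both higher and Smad3 lower (log2 fold change -0.31 ± 0.039, limma adjusted p = 7.51e-06). Of 9 retinoic acid genes 1 (11.1%) was called higher and 1 (11.1%) lower, shares below those of all genes. Crabp1, a binding protein, was 0.67 log2 higher and Dhrs3, which reduces retinal, was lower, at -0.68 log2.

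Lysosomal genes went both ways, 10 of 30 (33.3%) higher and 12 (40%) lower, beside 20.8% and 22.0% of all genes. The autophagy receptor Sqstm1 (log2 fold change -0.32 ± 0.026, limma adjusted p = 1.15e-07), the glucosidase Gaa (-0.28 log2) and Psap (-0.30 log2) were lower. Sqstm1 overlaps Mgat4b on the opposite strand. Of 68 nuclear-encoded subunits of the respiratory chain 20 (29.4%) were higher and 3 (4.41%) lower, beside 20.8% and 22.0% of all genes. Without SAM replicate 3, 13 were higher and 6 lower. With all libraries 23 were called, a count that ranged from 12 without adenine replicate 2 and 13 without adenine replicate 3 to 35 under plain read totals. The 3 lower subunits were Uqcrq (log2 fold change -0.52 ± 0.052, limma adjusted p = 8.72e-07), Ndufa6 and Ndufs5 (-0.18 and -0.19 log2). The call of Ndufa6 was lost without SAM replicate 1 or adenine replicate 1 or 2 (limma adjusted p from 0.0111 to 0.0231), and that of Ndufs5 without any single library but SAM replicate 3 (0.010 to 0.0465). Atp5f1a, of ATP synthase, had the smallest adjusted p among those higher (log2 fold change 0.36 ± 0.028, limma adjusted p = 5.25e-08), with Haus1 overlapping it on the opposite strand. Reads on the 20 genes of mitochondrial DNA were 3.09% to 3.61% of the total in SAM and 3.38% to 3.49% in adenine.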
